A study of Homo sapiens with 27 samples.

Results

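The MYC, MAX and MXD network was examined in U937 cells, a human myeloid leukaemia cell line, before and after treatment with matrine, an alkaloid of Sophora flavescens. The network was taken as 10 genes fixed by name, MYC, MAX, MXD1, MXD3, MXD4, MXI1, MNT, MLX, MLXIP and MGA, and all 10 were found among the 57905 gene identifiers of the deposited table. RNA-seq was performed on 3 libraries of control cells and on 3 libraries at each of the treatment times, 30 min and 24 h, with matrine at 0.8 mg/ml. All 9 libraries came from 1 cell line grown in RPMI medium with serum, no gene was altered in any group, and the vehicle named for matrine was water. Both treatment times were set against 1 control group, whose time in culture is not given in the sources used here, so 24 h of treatment and 24 h of culture cannot be told apart. Nothing in the labels says that the libraries of a group came from separate cultures, so the p-values measure the spread between these libraries, which may be technical.

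MAX is the hub of this network, a small protein that binds DNA at the E-box sequence CACGTG only as a pair with itself or with a partner. c-Myc, the product of MYC, is the partner that activates transcription, and it drives growth genes in many leukaemias. The MXD proteins (MXD1, MXD3, MXD4 and MXI1), MNT and MGA compete with c-Myc for MAX and recruit repressors to the same sites, and members of the MXD family are commonly raised when cells leave the cycle and differentiate. MLX is a second hub, which pairs with MLXIP (also called MondoA), a sensor of glucose metabolites, and with some of the MXD proteins and MNT.

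Each library held 17314931 to 21930018 counts, of which 4.99% to 5.28% belonged to its 10 most abundant genes. Of 12 myelomonocytic markers, 9 had a mean level above 1 FPKM (fragments counted for a gene, scaled by its length and by the size of the library) in control cells, with LYZ, ELANE and SPI1 among them, while CD14 and CSF1R lay below it. Of 8 erythroid and megakaryocytic markers, 1 (KLF1) passed that level and 2 had no count in any library. Of 8 lymphoid markers, 3 (CD3E, CD3D and MS4A1) had no count in any library, and the summed level of the 8 lay between 4.39 and 5.51 FPKM in all libraries. At 24 h 1 of these markers was called lower (PAX5, log2 fold change -1.62) and 1 higher (CD79A, 0.74). Of all genes tested, 11.2% were called lower and 15.1% higher. Both markers are named after their values were seen. The summed level of the myelomonocytic markers was 1467 to 1662 FPKM in the control, 1555 to 1596 FPKM after 30 min and 2087 to 2216 FPKM after 24 h, and the part of this difference in the results at 24 h was not tested.

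Differential expression was tested on the counts with edgeR's quasi-likelihood test, and adjusted p-values are Benjamini-Hochberg values over all genes tested. Genes with a mean above 1 FPKM in the 6 libraries of a comparison entered the test, and a gene was called at an adjusted p below 0.05 with a fold change of at least 1.5. Of the 10 network genes 9 were tested, and MGA fell under the limit. After 30 min, 1 of the 9 was called lower (MYC), where 0.544% of the 11587 genes tested were called lower, and 0 were called higher, where the share of all genes was 0.0949% (0.639% in either direction). After 24 h, 1 of the 9 was called lower (MYC again), against 11.2% of 12035 genes tested, and 3 were called higher (MXD1, MXD3 and MXD4), against 15.1% (26.3% in either direction). Between 30 min and 24 h, 2 of the 9 were called higher (MXD1 and MXD3), against 15.4% of 11981 genes tested. The number called lower was 0, against 11.5% (26.9% in either direction). The control and treated libraries did not overlap in FPKM for more genes than were called. At 30 min all treated libraries lay below all control libraries for 2 of the 9 (MYC and MLX), against 8.91% of all genes, and above them for 3 (MXD1, MXD4 and MNT), against 4.89%. At 24 h they lay below for 2 (MYC and MXI1), against 31%, and above for 4 (MXD1, MXD3, MXD4 and MLXIP), against 38.7%. The 24 h libraries lay below all 30 min libraries for 1 (MYC), against 28.6%, and above them for 4 (MXD1, MXD3, MXD4 and MLX), against 39.9%. Levels in a bulk sample are relative to all RNA, so fewer cells of a kind and less of an mRNA per cell cannot be told apart.

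**Figure D1:**
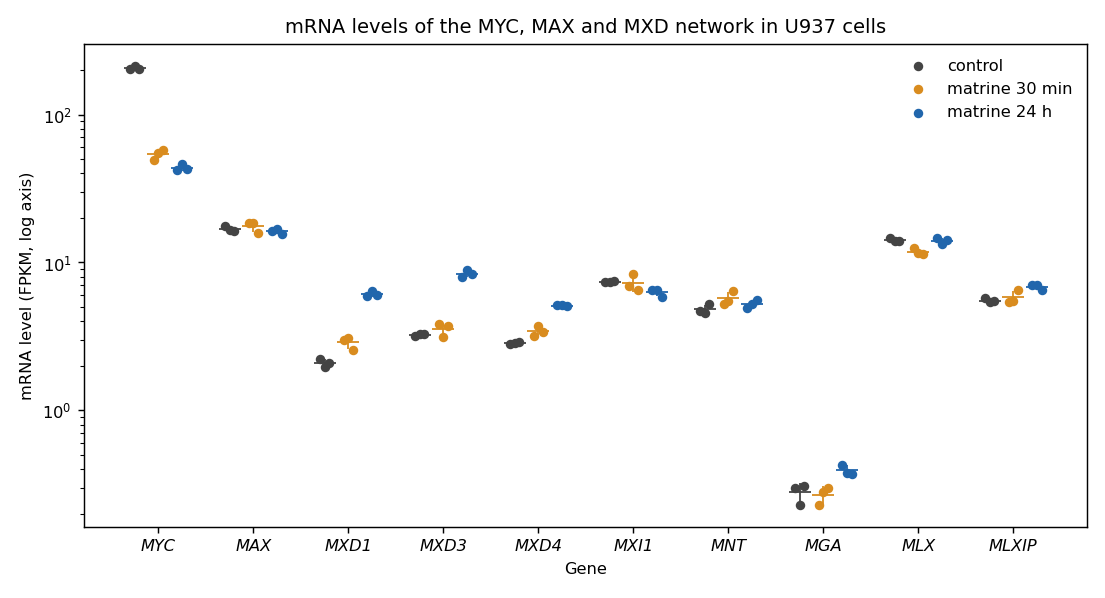
mRNA level of each network gene (FPKM, log axis) in the 9 libraries; points are libraries, the horizontal mark is the group mean and the bar its SD (n = 3 per group). MYC drops from 207.2 FPKM to 54.1 and 43.8 FPKM, MXD1, MXD3 and MXD4 are highest at 24 h, and the other genes stay near their control level.

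MYC was by far the most abundant gene of the network in control cells. Its mRNA level was 204.34, 213.09 and 204.17 FPKM in the control libraries, 49.06, 55.14 and 58.03 FPKM after 30 min of matrine treatment and 42.17, 46.05 and 43.08 FPKM after 24 h. Every treated library lay below every control library, and every 24 h library lay below every 30 min library. MYC fell 3.80-fold at 30 min (log2 fold change -1.93, standard error 0.061, adjusted p = 2.67e-14, edgeR) and 4.89-fold at 24 h (log2 fold change -2.29, standard error 0.063, adjusted p = 2.66e-17, edgeR). Between the times the log2 fold change was -0.38 (95% interval -0.51 to -0.26, adjusted p = 1.5e-05, edgeR), a difference larger than the spread between libraries but under the 1.5-fold limit. Most of the decrease was thus measured within the first 30 min.

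In control cells 158 other genes had a higher mean FPKM than MYC, which ranked 159th, and it ranked 912th after 30 min and 1102nd after 24 h. Even at the lower levels, MYC stood above 92.1% of the 11534 genes with a mean above 1 FPKM at 30 min and above 91.1% of the 12324 such genes at 24 h. At 30 min 19 of the 11587 genes tested had a lower log2 fold change than MYC, and at 24 h 12 of 12035 had. MYC lies on chromosome 8 of GRCh38 (127735434 to 127742951, plus strand), and 194 of its exon bases are shared with CASC11 on the opposite strand, which was at 0 to 0.01 FPKM in these libraries.

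The other members of the MYC family and the transcripts around the MYC locus were low. MYCN had no count in any library, and MLXIPL, the relative of MLXIP, reached at most 0.01 FPKM. MYCL was at 0.69, 0.62 and 0.58 FPKM in the control, 0.53, 0.50 and 0.25 FPKM after 30 min and 0.31, 0.16 and 0.09 FPKM after 24 h. The libraries of both times lay below all control libraries. Without the limit on FPKM, MYCL had a log2 fold change of -0.54 at 30 min, which did not pass the test (adjusted p = 0.471, edgeR). At 24 h it was -1.90 (standard error 0.27, adjusted p = 1.92e-11, edgeR), from 51 to 73 counts per control library and 10 to 32 counts per 24 h library. PVT1, a long noncoding RNA gene next to MYC, was at 2.35, 2.90 and 2.52 FPKM in the control and at 2.28, 2.58 and 2.91 FPKM after 30 min, where the groups overlapped. After 24 h it was at 1.66, 1.86 and 1.73 FPKM and had fallen (log2 fold change -0.61, standard error 0.12, adjusted p = 0.000134, edgeR). PVT1 therefore had a log2 fold change of 0.01 at the time at which that of MYC was -1.93. CCDC26, further along the same chromosome arm, was not called at either time (log2 fold change -0.31 at 30 min and -0.15 at 24 h), and PCAT1 was at 0 FPKM. CCAT1 is not analysed here.

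MAX, on chromosome 14 (GRCh38, 65006174 to 65102695, minus strand), was not called at either time. Its level was 17.52, 16.68 and 16.43 FPKM in the control, 18.37, 18.56 and 15.78 FPKM after 30 min and 16.33, 16.74 and 15.63 FPKM after 24 h, and the groups overlapped at both times. The log2 fold change was 0.07 at 30 min (95% interval -0.08 to 0.22) and -0.10 at 24 h (95% interval -0.25 to 0.04), so both intervals exclude a 1.5-fold change, which is 0.585 on this scale. The level of MYC over that of MAX, both per length, was 11.7, 12.8 and 12.4 in the control libraries, 2.67, 2.97 and 3.68 after 30 min and 2.58, 2.75 and 2.76 after 24 h. Part of the MAX exons, 822 bases, overlap FNTB on the opposite strand, which lay between 2.49 and 3.37 FPKM and was not called at either time.

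**Figure D2:**
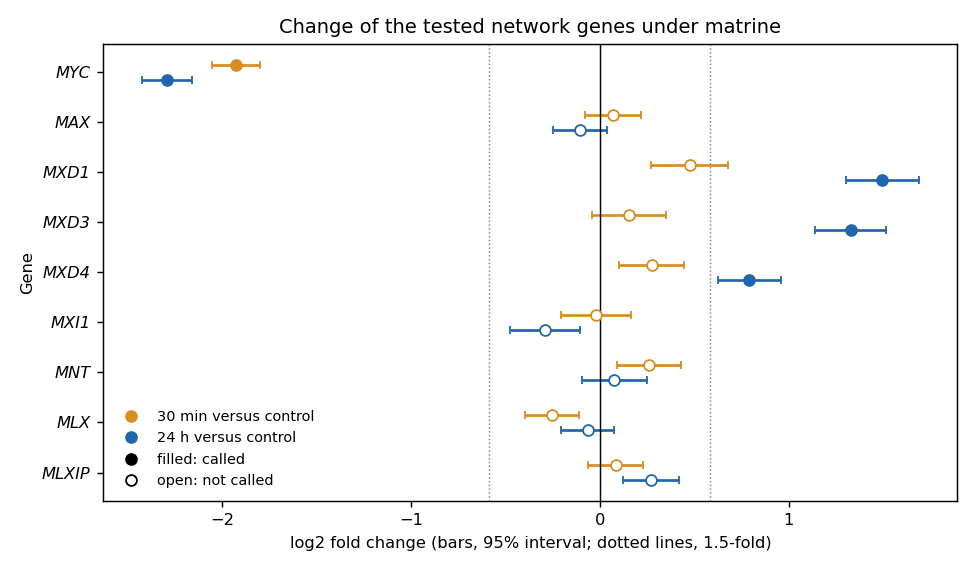
Log2 fold change against the control of the 9 network genes tested, with 95% intervals from the edgeR fit (n = 3 libraries per group); filled points passed the test and the 1.5-fold limit (dotted lines). MYC is on the far left at both times, MXD1, MXD3 and MXD4 pass the limit on the right at 24 h, and at 30 min the interval of MXD1 (0.27 to 0.68) crosses the right dotted line.

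Among the genes for repressing partners, 3 of the 4 of the MXD family rose after 24 h. MXD1 (chromosome 2, GRCh38 69897688 to 69942945, plus strand) was at 2.21, 1.97 and 2.09 FPKM in the control. It was at 3.00, 3.11 and 2.55 FPKM after 30 min and at 5.91, 6.39 and 6.02 FPKM after 24 h. The groups did not overlap at any step. MXD1 was the 1 network gene other than MYC with an adjusted p below 0.05 at 30 min (log2 fold change 0.48, standard error 0.098, adjusted p = 0.00931, edgeR), though the change of 1.39-fold was under the limit for a call. At 24 h it had risen 2.82-fold (log2 fold change 1.5, standard error 0.092, adjusted p = 1.45e-11, edgeR). In the annotation 237 of its exon bases are shared with SNRNP27 on the same strand, which had a log2 fold change of -0.30 at 24 h. From 30 min to 24 h the log2 fold change of MXD1 was 1.00 (standard error 0.089, adjusted p = 3.6e-09, edgeR).

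MXD3 (chromosome 5, GRCh38 177301461 to 177312757, minus strand) was at 3.16, 3.28 and 3.26 FPKM in the control. After 30 min it was at 3.83, 3.14 and 3.71 FPKM, which overlapped the control, and after 24 h at 7.98, 8.86 and 8.34 FPKM. The log2 fold change was 0.15 at 30 min (95% interval -0.04 to 0.35) and 1.33 at 24 h (standard error 0.090, adjusted p = 6.69e-11, edgeR), an increase of 2.51-fold. MXD3 is unlike the other MXD genes in that it is often expressed in cycling cells. In the annotation, 926 of its exon bases are shared with RAB24 on the same strand and 1148 with PRELID1 on the opposite strand, and the strand setting of the counting is not given in the sources used here. At 24 h RAB24 had a log2 fold change of -0.05 and PRELID1 one of -0.75 (adjusted p = 2.64e-09, edgeR), so that neither neighbour rose with MXD3.

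MXD4 (chromosome 4, GRCh38 2247432 to 2262109, minus strand) was at 2.82, 2.85 and 2.89 FPKM in the control, at 3.17, 3.71 and 3.40 FPKM after 30 min and at 5.12, 5.18 and 5.05 FPKM after 24 h. The 3 groups did not overlap. The log2 fold change was 0.28 at 30 min (standard error 0.083, adjusted p = 0.114, edgeR), which did not pass the test, and 0.79 at 24 h (standard error 0.081, adjusted p = 3.05e-08, edgeR), an increase of 1.73-fold. MXD4 therefore rose by less than MXD1 and MXD3 at 24 h, and the 95% intervals of its log2 fold change (0.62 to 0.96) and of theirs (1.30 to 1.69 and 1.14 to 1.52) did not overlap. The difference between genes was not itself tested.

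Since these 3 genes rose together at 24 h, their promoter windows are shown (RefSeq, GRCh38.p14, 250 bases before to 50 after an annotated start site, 5′ to 3′ on the strand of the gene). Capitals mark every match to CANNTG, the general E-box, of which CACGTG is the form that MAX pairs prefer. The windows are chr2:69914859-69915158 for MXD1, chr5:177312703-177313002 for MXD3 and chr4:2262060-2262359 for MXD4.
MXD1: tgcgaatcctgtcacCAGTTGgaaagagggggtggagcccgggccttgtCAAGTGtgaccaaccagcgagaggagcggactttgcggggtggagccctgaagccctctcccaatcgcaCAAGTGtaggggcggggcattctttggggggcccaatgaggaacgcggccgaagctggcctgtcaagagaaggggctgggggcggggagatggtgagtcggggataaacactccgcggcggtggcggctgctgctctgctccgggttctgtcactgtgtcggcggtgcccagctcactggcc
MXD3: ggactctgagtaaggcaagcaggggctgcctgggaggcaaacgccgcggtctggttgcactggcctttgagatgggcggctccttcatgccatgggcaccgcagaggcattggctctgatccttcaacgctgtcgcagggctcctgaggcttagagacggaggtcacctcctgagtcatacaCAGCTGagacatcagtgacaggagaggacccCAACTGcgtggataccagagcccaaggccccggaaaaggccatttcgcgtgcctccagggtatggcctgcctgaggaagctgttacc
MXD4: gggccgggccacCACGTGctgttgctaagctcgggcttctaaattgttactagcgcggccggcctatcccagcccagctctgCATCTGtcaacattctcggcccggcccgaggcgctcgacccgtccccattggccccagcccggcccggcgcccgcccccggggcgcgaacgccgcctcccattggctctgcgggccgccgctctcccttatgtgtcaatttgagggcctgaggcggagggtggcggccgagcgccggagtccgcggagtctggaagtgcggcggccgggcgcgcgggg

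The window of MXD4 holds CACGTG, at -238 from the start site, and those of MXD1 and MXD3 hold other CANNTG sequences, 3 and 2 of them. Of the network genes with a window in the table (9, all but MYC), 3 hold CACGTG in at least 1 window, against 8.77% of the 27305 genes with a window. CANNTG is found in the windows of 7 of the 9 genes and of 73.1% of all genes. Both motifs were searched on both strands, and CACGTG is contained in CANNTG. The other windows with CACGTG are those of MNT and MLX, printed as the bases around the motif, which is in capitals, at chr17:2401231-2401270 (minus strand) and chr17:42567033-42567072 (plus strand).
MNT: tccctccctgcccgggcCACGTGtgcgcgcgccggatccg
MLX: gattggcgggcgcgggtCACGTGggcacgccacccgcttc
The genes with CACGTG in their window, MXD4, MNT and MLX, had log2 fold changes of 0.79, 0.08 and -0.06 at 24 h. MXD1 and MXD3, which have other E-box sequences in theirs, had the largest increases of the network. A relation between motif and change was not tested.

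MXI1, the remaining gene of the MXD family, was on the lower side. On chromosome 10 (GRCh38, 110207605 to 110287365, plus strand), it was at 7.43, 7.36 and 7.5 FPKM in the control, at 6.94, 8.39 and 6.48 FPKM after 30 min and at 6.54, 6.47 and 5.86 FPKM after 24 h. The 24 h libraries lay below the control libraries, but those of 30 min overlapped both groups. The log2 fold change at 24 h was -0.29 (95% interval -0.47 to -0.10, adjusted p = 0.00757, edgeR), a difference past the test for significance and under the 1.5-fold limit. At 30 min it was -0.02 (95% interval -0.21 to 0.17). The intervals at 24 h of MXI1 on the one side and of MXD1, MXD3 and MXD4 on the other lay on opposite sides of 0.

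MNT, the partner of MAX that is present in most cells whether or not they divide, was not called at either time. On chromosome 17 (GRCh38, 2384073 to 2401104, minus strand), it was at 4.68, 4.59 and 5.21 FPKM in the control, 5.28, 5.53 and 6.39 FPKM after 30 min and 4.94, 5.26 and 5.56 FPKM after 24 h. Its 30 min libraries lay above the control libraries, with a log2 fold change of 0.26 that did not pass the test (95% interval 0.09 to 0.43, adjusted p = 0.133, edgeR). At 24 h the groups overlapped (log2 fold change 0.08, 95% interval -0.09 to 0.25).

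MGA, the largest protein of the network, which joins MAX to a polycomb repressor complex, was at the lowest level. It is on chromosome 15 (GRCh38, 41621134 to 41773081, plus strand) and was at 0.30, 0.23 and 0.31 FPKM in the control, 0.23, 0.28 and 0.30 FPKM after 30 min and 0.43, 0.38 and 0.37 FPKM after 24 h, from 64 to 127 counts per library. The 24 h libraries lay above all others. When genes were tested without the limit on FPKM, the log2 fold change of MGA at 24 h was 0.36 (95% interval 0.02 to 0.71, adjusted p = 0.107, edgeR). The interval excluded 0, but the difference did not pass the test after adjustment over all genes.

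The order of the repressing partners changed with these shifts. In control cells MXI1 was the most abundant, followed by MNT, MXD3, MXD4, MXD1 and MGA, and the libraries of neighbours in this order did not overlap. At 30 min the order was the same, with MXD3 and MXD4 overlapping. At 24 h MXD3 came first, MXI1 and MXD1 followed with overlapping libraries, and MNT and MXD4 came next, overlapping as well. MXI1 made up 35.3% to 36.3% of the summed FPKM of the 6 partners in control libraries and 18.8% to 21.2% after 24 h, while MXD1, MXD3 and MXD4 together went from 38.8% to 39.9% up to 61.5% to 62.8%.

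The sum itself was 20.60, 20.28 and 21.26 FPKM in the control, 22.45, 24.16 and 22.83 FPKM after 30 min and 30.92, 32.54 and 31.20 FPKM after 24 h. The groups did not overlap. Against this sum, the level of MYC was 10.0 ± 0.46 times as high in control cells (SD, n = 3), 2.34 ± 0.18 times (SD, n = 3) after 30 min and 1.39 ± 0.026 times (SD, n = 3) after 24 h. The ratio depended on the unit, being 4.76, 1.09 and 0.660 in counts scaled to library size but not to gene length, and both units gave the same order of the groups. It was lowered at 30 min with the partner sum changed by little, and at 24 h with the partner sum raised. These are ratios of mRNA levels, with no test, and protein levels were not part of these data.

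**Figure D3:**
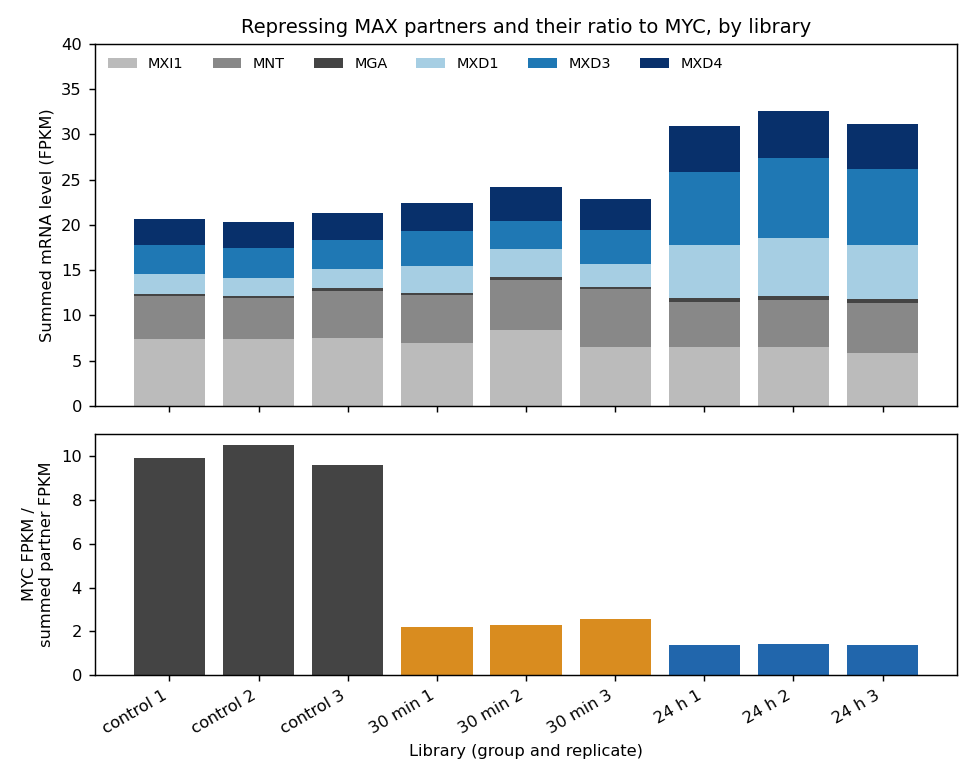
Top, FPKM of the 6 repressing MAX partners stacked for each library; bottom, FPKM of MYC divided by that sum. The stack grows from 20.3 to 21.3 FPKM in the control to 30.9 to 32.5 FPKM at 24 h through MXD1, MXD3 and MXD4, while the ratio goes from 9.60 to 10.5 in the control to 2.19 to 2.54 at 30 min and 1.36 to 1.42 at 24 h.

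The MLX arm of the network moved little. MLX (chromosome 17, GRCh38 42567072 to 42573239, plus strand) was at 14.58, 13.99 and 13.93 FPKM in the control, 12.47, 11.52 and 11.34 FPKM after 30 min and 14.57, 13.36 and 14.09 FPKM after 24 h. All 30 min libraries lay below all others, with a log2 fold change of -0.25 against the control that did not pass the test (95% interval -0.40 to -0.11, adjusted p = 0.0676, edgeR). At 24 h the log2 fold change was -0.06 (95% interval -0.21 to 0.08). PSMC3IP, which shares 775 exon bases with MLX on the opposite strand, was at 3.01 to 4.21 FPKM and was not called.

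MLXIP (chromosome 12, GRCh38 122078756 to 122147344, plus strand), which carries the glucose response to the nucleus with MLX, was at 5.71, 5.37 and 5.48 FPKM in the control and 5.43, 5.46 and 6.53 FPKM after 30 min. After 24 h it was at 7.06, 7.06 and 6.52 FPKM, above all control libraries. The log2 fold change at 24 h was 0.27 (95% interval 0.12 to 0.42, adjusted p = 0.00242, edgeR), below the 1.5-fold limit. Of the 8 genes listed as targets of the MLX and MLXIP pair, 4 were tested and 0 were called at 24 h, against 26.3% of all genes. At 30 min 1 was called lower, against 0.544% of all genes, KLF10, a transcription factor of the early response. It was at 7.95, 7.75 and 7.83 FPKM in the control, 3.87, 4.33 and 5.20 FPKM after 30 min and 12.10, 11.30 and 11.73 FPKM after 24 h. KLF10 had thus fallen at 30 min (log2 fold change -0.80, adjusted p = 1.31e-05, edgeR), and its log2 fold change at 24 h was 0.53 (adjusted p = 1.99e-05, edgeR), just under the fold limit. ARRDC4, a common marker of the pair's activity, had no count, and TXNIP is not analysed here.

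Of the genes tested at both times, 5 were named for the pair of log2 fold changes nearest to that of MYC, by Euclidean distance among 11098 genes. CCL2, a chemokine, was nearest at a distance of 0.10, with log2 fold changes of -2.03 at 30 min and -2.27 at 24 h. CXCL8, another chemokine, was at a distance of 0.43 (log2 fold changes -2.35 and -2.36), and F3, the tissue factor gene, at 0.60 (-1.52 and -1.85). Their control levels were 42.1, 8.84 and 2.11 FPKM, against 207.2 FPKM for MYC. F3 had means of 0.727 FPKM after 30 min and 0.607 FPKM after 24 h. Both lay under 1 FPKM, so F3 entered the tests only through its control level. The remaining pair, a Y RNA gene and MIR1290, were at distances of 0.85 and 0.87 and did not pass the test at 30 min (adjusted p = 0.689 and 0.647, edgeR). At 24 h MIR1290 did not pass either (adjusted p = 0.183, edgeR), while the Y RNA gene had an adjusted p of 0.0421 (edgeR). Their means at 24 h were 0.82 and 0.483 FPKM.

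Nearest to MXD1 were MROH6, AVPR2 and ZNF688, at distances of up to 0.083. Nearest to MXD3 were FTH1, the ferritin heavy chain gene, SLC26A6, an anion exchanger gene, and NUDT14, at distances of up to 0.048. FTH1 went from 73.3 FPKM in the control to 191.5 FPKM at 24 h. Nearest to MXD4 were a Y RNA gene, AFTPH-DT and ACVR1, a BMP receptor gene, at distances of up to 0.027. Unlike MXD4, this Y RNA gene did not pass the test at 24 h (adjusted p = 0.469, edgeR). Such distances are descriptions of 2 values per gene that share the control libraries.

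The proteins that c-Myc and its competitors recruit were followed through lists of their genes. None of these lists had a member called at 30 min, where 0.639% of all genes tested were called in either direction. Of 16 MYC coactivator genes, all tested, 3 were called lower at 24 h and 0 higher, where 11.2% of all genes were called lower and 15.1% higher, and the median of their log2 fold changes was -0.16, where the median of all genes was 0.01. RUVBL1 and RUVBL2, the paired ATPases of chromatin remodelling complexes that bind c-Myc, went from 25.1 ± 0.68 and 84.7 ± 5.1 FPKM (SD, n = 3) in the control to 9.05 ± 0.046 and 44.3 ± 1.2 FPKM (SD, n = 3) at 24 h. Their log2 fold changes were -1.52 (adjusted p = 6.98e-15, edgeR) and -0.98 (adjusted p = 3.94e-11, edgeR). KAT2A, a histone acetyltransferase, had a log2 fold change of -0.67 (adjusted p = 5.06e-08, edgeR).

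Of 17 genes of the SIN3 corepressor, which MXD proteins and MNT use, 1 was called lower at 24 h and 0 higher, against 11.2% and 15.1% of all genes, and the median log2 fold change was -0.07. It was HDAC2, a histone deacetylase, at 16.7 ± 0.14 FPKM (SD, n = 3) in the control and 10.4 ± 0.40 FPKM (SD, n = 3) at 24 h (log2 fold change -0.73, adjusted p = 2.61e-09, edgeR). SIN3A and SIN3B, the scaffolds, were not called. Of 13 genes of the polycomb complex that holds MGA, 3 were called lower at 24 h and 0 higher, HDAC2 again, TFDP1 and TFDP2, against 11.2% and 15.1% of all genes, with a median of -0.42. TFDP1, which pairs with E2F factors, went from 185 ± 2.2 to 122 ± 1.0 FPKM (SD, n = 3).

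Of 18 genes for the turnover of c-Myc protein, 17 were tested, and 2 were called lower and 1 higher at 24 h, where 26.3% of all genes were called in either direction. SKP2, a ubiquitin ligase subunit, had a log2 fold change of -0.63 (adjusted p = 3.71e-08, edgeR) and CIP2A, which protects c-Myc from dephosphorylation, one of -0.84 (adjusted p = 7.13e-09, edgeR). TRPC4AP, a ligase adaptor that targets c-Myc, rose from 32.9 ± 0.27 to 53.4 ± 0.67 FPKM (SD, n = 3; log2 fold change 0.65, adjusted p = 5.82e-09, edgeR). FBXW7, the best known ligase subunit for c-Myc, was not called at either time. Its log2 fold change at 24 h was -0.37 (95% interval -0.57 to -0.18, adjusted p = 0.00164, edgeR), under the fold limit.

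**Figure D4:**
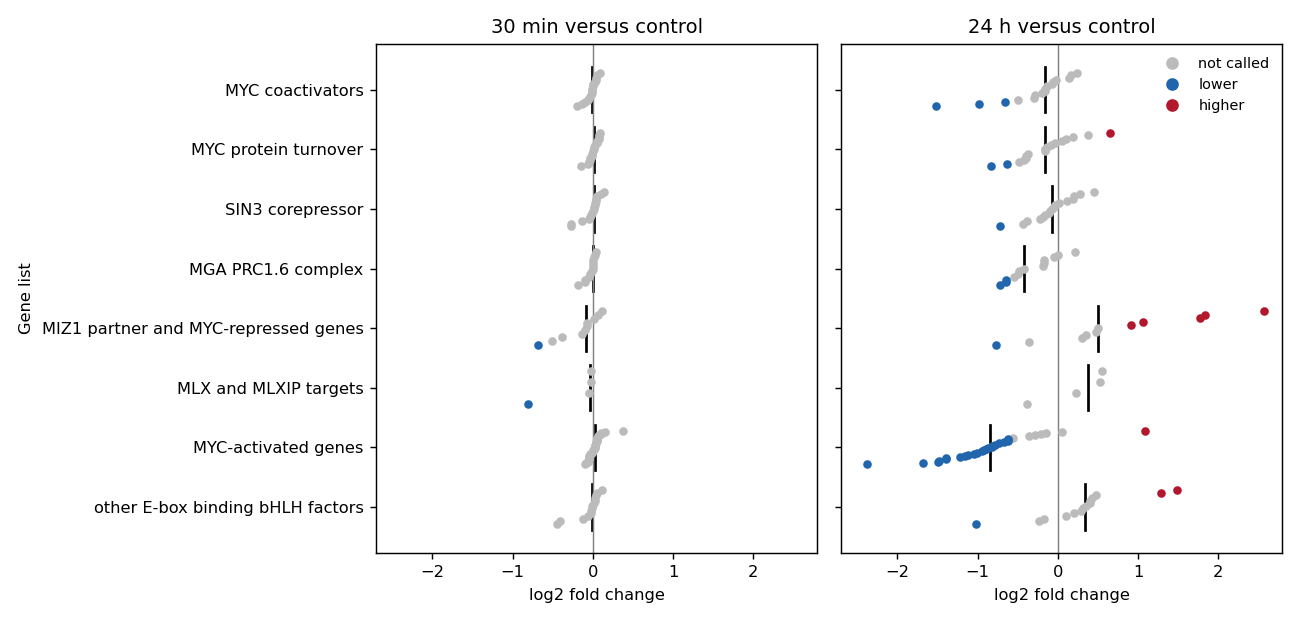
Log2 fold change of each tested gene of 8 lists around the network at 30 min (left) and 24 h (right); each point is a gene, coloured by its call, and the black line is the median of the list. At 30 min nearly all points lie near 0, and at 24 h the genes activated by c-Myc centre at -0.85 and those repressed by it at 0.50.

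Genes that c-Myc is known to activate were called at 24 h. Between the times 24 of 30 were called lower and 1 higher, against 11.5% and 15.4% of all genes. Of 30 such genes, 0 were called at 30 min, against 0.639% of all genes, and the median of their log2 fold changes was 0.02. At 24 h 23 were called lower and 1 higher, with a median of -0.85, where 11.2% of all genes were called lower and 15.1% higher. The list was drawn up with earlier results of these libraries known, so its direction is not independent evidence. TERT, the telomerase catalytic subunit, had the largest decrease (log2 fold change -2.38, adjusted p = 1.23e-09, edgeR), from 2.31 ± 0.31 to 0.457 ± 0.081 FPKM (SD, n = 3). Its 24 h mean lay under 1 FPKM, so TERT entered the test only through its control level. CCND2, a G1 cyclin, had a log2 fold change of -1.68 (adjusted p = 5.27e-12, edgeR). NOP16, a nucleolar protein of ribosome assembly, had one of -1.49 (adjusted p = 6.65e-14, edgeR), and FKBP4, a cochaperone, one of -1.48 (adjusted p = 3.35e-15, edgeR). The 1 gene that rose was TFRC, the transferrin receptor, named after its value was seen, from 41.0 ± 2.4 to 89.8 ± 0.72 FPKM (SD, n = 3; log2 fold change 1.08, adjusted p = 4.93e-13, edgeR).

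The 12 genes of the opposite list hold ZBTB17, the gene of the c-Myc partner MIZ1, and genes that c-Myc is known to repress. At 24 h 11 were tested, 5 were called higher, against 15.1% of all genes, and 1 lower, against 11.2%, with a median of 0.50. CDKN1A, the cell cycle inhibitor p21, was at 0.98, 1.35 and 1.20 FPKM in the control and at 7.91, 6.65 and 7.02 FPKM after 24 h (log2 fold change 2.56, adjusted p = 2.65e-12, edgeR). SESN2, a stress-response regulator of mTORC1, and CDKN2B and CDKN2D, inhibitors of the cyclin D kinases, had log2 fold changes of 1.84, 1.77 and 1.06. At 30 min 10 were tested, 0 were called higher (0.0949% of all genes) and 1 was called lower (0.544% of all genes), GADD45A, a growth arrest gene, which was also the 1 called lower at 24 h and is named after its values were seen. Its log2 fold change was -0.69 at 30 min (adjusted p = 0.00732, edgeR) and -0.77 at 24 h (adjusted p = 5.3e-05, edgeR).

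Other factors that bind E-boxes were examined beside the network. Of 15, 14 were tested, and 0 were called at 30 min, against 0.639% of all genes. At 24 h 1 was called lower and 2 higher, where 26.3% of all genes were called in either direction. TFAP4, itself a known target of c-Myc, went from 5.85 ± 0.31 to 2.97 ± 0.091 FPKM (SD, n = 3; log2 fold change -1.02, adjusted p = 2.79e-10, edgeR). SREBF2, the regulator of cholesterol synthesis, rose from 23.1 ± 0.61 to 67.1 ± 1.1 FPKM (SD, n = 3; log2 fold change 1.49, adjusted p = 7.07e-15, edgeR). BHLHE40, a repressor of the clock and stress responses, was at 20.43, 21.14 and 22.71 FPKM in the control, 14.36, 15.21 and 17.04 FPKM after 30 min and 52.60, 55.52 and 54.38 FPKM after 24 h, with log2 fold changes of -0.45 and 1.29. USF1, USF2 and TFE3, which bind CACGTG as well, were not called at either time.

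Among the myelomonocytic markers, 4 of the 10 tested were called higher at 24 h and 0 lower, against 15.1% and 11.2% of all genes, and 0 of 9 were called at 30 min, against 0.639%. These were MPO, ITGAM, AZU1 and ELANE, genes of granule proteins and of an adhesion receptor, with log2 fold changes of 2.50, 1.25, 0.75 and 0.59. They rose at the time at which MXD1, MXD3 and MXD4 did, and a relation between the 2 sets was not tested.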

How the data were processed

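RNA-seq libraries of U937 cells (3 groups of 3) were analysed; of the 27 samples of the series, the 18 libraries of HL-60 and K562 cells are not analysed here. Per the submitters' processing notes, reads were handled with cutadapt 1.9.1, HISAT2 2.0.1 and HTSeq 0.6.1. The notes name GRCh37 and the paper hg38 as the genome, so coordinates printed are those of the gene models in GENCODE release 44 and not of the counting. The authors deposited unnormalized counts per gene and FPKM values for each library. Which annotation release was counted, whether strand was used and how reads shared by genes were treated is not given in the sources used here. Symbols were matched for 51996 of 57905 identifiers.

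Counts were normalized by TMM and tested with edgeR 4.0.16 (R 4.3.3) in a fit of all 9 libraries, on genes with a mean deposited FPKM above 1. A standard error is the size of the log2 fold change divided by the square root of its F statistic, and 95% intervals use the fit's degrees of freedom. The procedure was tested on simulated data. With 3 libraries against 3, an exact permutation test of 1 gene gives no p below 0.1. Within each group the counts varied beyond sampling noise, so the libraries were kept as separate replicates. The network genes, the lists and the tests were chosen with earlier results of these data known. Named genes were the 10 network genes, every gene of a list of 5 or fewer, and up to 4 genes of each other list with the largest change among those called whose groups did not overlap. The 5 genes nearest to MYC and the 3 nearest to each other network gene called at 24 h were also named, and any other gene was named after its values were seen or because it overlaps a network gene or characterises the list. Alternatives covered the filter, normalization, tool, pseudocount, fold change, replicate block, a fit of 6 libraries only and leaving out each library, with limma 3.58.1 and DESeq2 1.42.0. The number of lymphoid markers above 1 FPKM is not reported here.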

Additional observations from a re-analysis of the deposited data

Results flagged for a closer look

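The effects at 30 min and at 24 h share their controls, so their difference was tested directly as 24 h against 30 min. Results called in this test, at both the adjusted p and the fold limit, are given here as differing. MXD1 and MXD3 differed between the times, with log2 fold changes of 1.00 and 1.16. MXD4 passed the adjusted p but not the fold limit (log2 fold change 0.50, 95% interval 0.33 to 0.66, adjusted p = 1.24e-05, edgeR). Of the lists, the genes activated by c-Myc held the most that differed, 25 of 30, followed by the MIZ1 and c-Myc-repressed genes with 6 of 11 tested. Other E-box binding factors held 4, MYC coactivators and the SIN3 corepressor 3 each, genes of c-Myc protein turnover and of the MGA complex 2 each, and the transcripts around the MYC locus (PVT1) and the targets of MLX and MLXIP (KLF10) 1 each, where 26.9% of all genes tested differed between the times. MYC had a log2 fold change of -0.38 in this test and did not pass the fold limit.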

How the results depend on the processing

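Under every alternative run, MYC was called lower at both times, and its log2 fold change ranged over -1.97 to -1.87 (30 min) and -2.36 to -2.22 (24 h). MXD1, MXD3 and MXD4 were higher at 24 h under every alternative that tested them, with ranges of 1.20 to 1.54, 1.15 to 1.38 and 0.67 to 0.84. At 30 min the adjusted p of MXD1 ranged from 0.000591 (DESeq2) to 0.0757 (limma, pseudocount 1). That of MLX ranged from 0.044 (edgeR, mean FPKM above 5) to 0.369 (edgeR, without control replicate 1). Counts of called network genes moved with the thresholds, by construction. With a mean FPKM above 5, where MXD1 and MXD4 were not tested, 1 was higher at 24 h and 1 at 24 h against 30 min. Of all genes tested, 869 of 7273 and 913 of 7195 were higher in these comparisons. Without a fold limit, 1 was higher at 30 min (MXD1), where 34 of all 11587 genes tested were. At 24 h 2 were lower and 4 higher (MXI1 and MLXIP added), where 3824 and 3794 of 12035 genes were. At 24 h against 30 min 4 were lower and 5 higher, where 3903 and 3894 of 11981 genes were. At a fold change of at least 2, MXD4 was no longer called at 24 h. At 24 h against 30 min 1 was higher, where 777 of 11981 genes were, since MXD1 at 0.9992 came just under the limit. Near 0 at 30 min, MXI1 was 0.0075 and 0.061 without 30 min replicates 1 and 3, in a range of -0.11 to 0.061 over the libraries left out. MLXIP was -0.0028 without 30 min replicate 3, in a range of -0.0028 to 0.15.

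The ratio of MYC to its repressing partners was 13.3, 3.17 and 1.69 (control, 30 min, 24 h) with the MXD family alone as partners, and 4.76, 1.09 and 0.660 in counts scaled to library size only, with ranges of 9.76 to 10.2, 2.23 to 2.41 and 1.37 to 1.40 when a library was left out. CANNTG in place of CACGTG was found in 7 genes in place of 3. Leaving out any library changed no count of called network genes. Same-numbered libraries of different groups were not paired in the main fit. A correlation of deviations above 0.1 was found in 0 of 9 same-numbered pairs and in 3 of 18 other pairs. With deviations taken from means of 3 libraries, this cannot show whether same-numbered libraries were handled together. With a replicate block the counts of called network genes were 1 lower at 30 min, 1 lower and 3 higher at 24 h and 2 higher between the times. The counts of all genes were 63 lower at 30 min, 1343 lower and 1815 higher at 24 h and 1850 higher between the times. Library totals alone lowered the share of lower genes among all genes called between 24 h and 30 min from 42.8% to 32.6%, as did limma on log2(FPKM + 0.1). MGA, with 64 to 127 counts per library, had an unadjusted p of 0.0385 and an adjusted p of 0.107 at 24 h (edgeR, no filter on low values).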
